A study of Homo sapiens with 19 samples.

Results

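MYC was examined together with the stretch of chromosome 8 that regulates it, from 200 kb upstream of the gene to 2 Mb downstream of its end (chromosome 8 from 127535434 to 129742951 in hg38, 2.21 Mb). MYC (ENSG00000136997.22) lies on the plus strand from 127735434 to 127742951 and is 1 of 62700 genes in GENCODE release 44. The members are the peaks of all 12 deposited lists in this domain, 432 of 292523 peaks in all. The rule uses position and no measured value. The domain holds no other protein-coding gene. GSDMC, the next such gene downstream, lies past its end.

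The cells were MOLM-13, an established line of human acute myeloid leukaemia that carries a KMT2A-MLLT3 fusion and is known to hold extra copies of chromosome 8; copy number was not analysed here. They were given Corin at 0.1 µM for 24 h or the vehicle DMSO for the same time, and the labels list the same dose for DMSO. CUT&RUN, which cuts out chromatin around an antibody, was run for H3K27ac, H3K4me2 and H3K4me3 with 2 libraries per mark and treatment. The labels do not say whether these came from separate cultures, so the tests measure only the spread between libraries, which may be technical. The other 7 of the 19 libraries, labelled ATRA/CORIN or made with antibodies to LSD1 or IgG, were not analysed here, and neither was RNA. The lists give peaks and no reads, so depth is unknown, and each list has its own length.

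MYC encodes a transcription factor that pairs with MAX and drives growth and division. In blood cells its transcription is known to depend on a cluster of enhancers far downstream, the blood enhancer cluster, which lies inside the long non-coding gene CCDC26 and which leukaemias with KMT2A fusions rely on. H3K27ac marks active promoters and enhancers, H3K4me2 marks both whether active or poised, and H3K4me3 marks mainly promoters. Corin joins an LSD1 inhibitor to a deacetylase inhibitor and acts on the CoREST complex, which removes H3K4me2 and acetylation. The comparison with DMSO addresses where these marks lie once CoREST is inhibited.

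The labelled cell type was checked by H3K4me3 at promoters. Of 9 markers of myeloid leukaemia, 7 had a peak in all 4 libraries, among them SPI1, FLT3, HOXA9 and MEIS1. MPO, a granule enzyme, had none, and CSF1R, a monocyte receptor, had one in 1 library. None of the 8 markers of B cells, T cells, epithelium and liver had a peak, and of 3 erythroid markers EPOR had one in 3 libraries.

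The domain was described in 5 stretches, and the marks were spread over them differently. MYC with its promoter held 54.9% and 52.5% of the H3K4me3 length of the domain after DMSO and 18.3% and 19.9% of the H3K4me2 length, but 0.69% and 0.83% of the H3K27ac length. No list had a peak between 200 kb and 2 kb upstream of MYC, and the first peak of any mark began 1.54 kb before the gene. The stretch from the end of MYC to the end of PVT1, a long non-coding gene next to MYC, held 10 and 15 H3K27ac peaks after DMSO. From there to 1.5 Mb downstream no H3K27ac peak was found after DMSO, and a gap of 1017 kb had none in any of the 4 H3K27ac lists. The last stretch, from 1.5 Mb to the end, held 52 and 49 H3K27ac peaks after DMSO. It carried 86.6% and 83.1% of the H3K27ac length of the domain in those libraries, but only 42.2% and 41.6% of the H3K4me2 length and 17.6% and 19.6% of the H3K4me3 length.

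**Figure D1:**
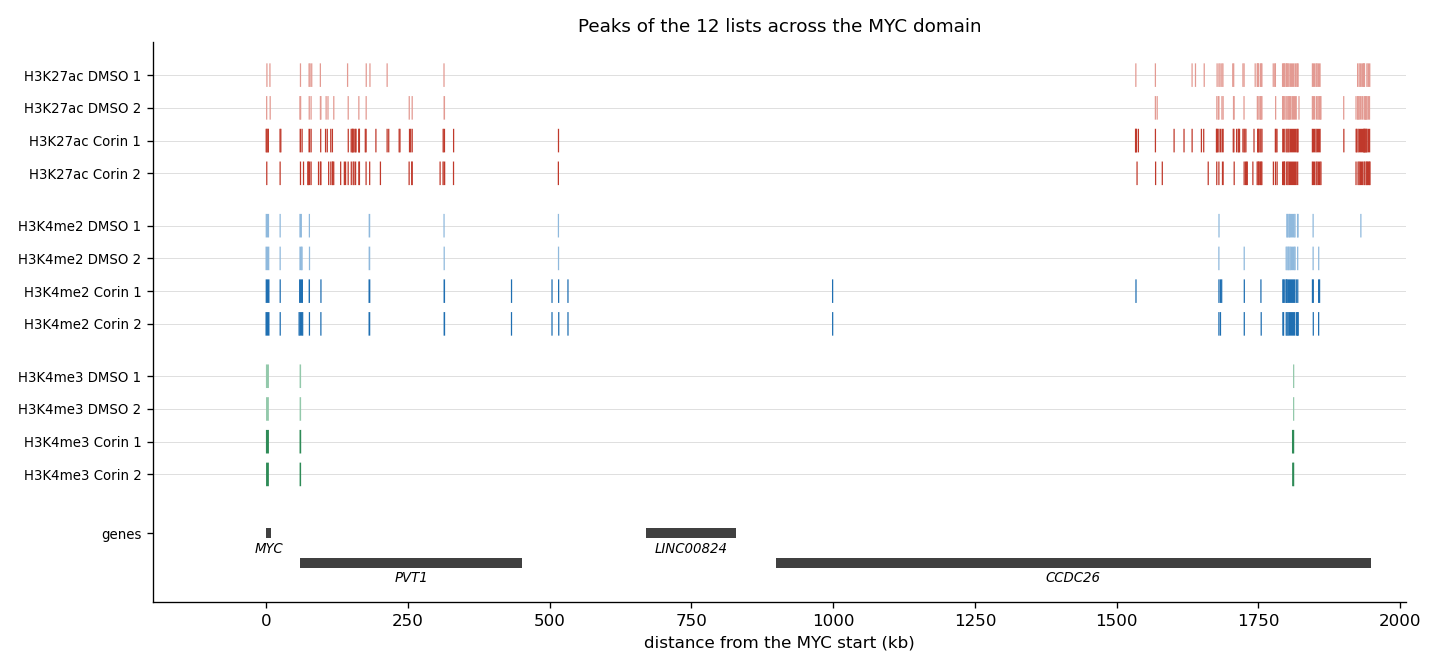
Peaks of each library along the domain, with distance from the MYC start in kb on the x axis and 1 row per library (pale, DMSO; dark, Corin). Narrow peaks are widened to a minimum so that they can be seen. Marks sit at MYC and PVT1 and again beyond 1.5 Mb, and the stretch between them holds a few H3K4me2 peaks and, after Corin, 1 H3K27ac peak per library.

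Over the whole domain H3K27ac covered 74601 and 73490 bp after DMSO and 104146 and 86979 bp after Corin. Both Corin libraries lay above both DMSO libraries. The means were 95562.5 ± 12139 bp and 74045.5 ± 785.6 bp (SD, n = 2 each), 1.29-fold apart (log2 ratio 0.37, SD 0.18). H3K4me2 covered 33240 and 33891 bp after DMSO and 57383 and 50760 bp after Corin, again without overlap. Its means differed 1.61-fold (log2 ratio 0.69, SD 0.13). H3K4me3 covered 9677 and 9573 bp after DMSO and 11051 and 10192 bp after Corin (log2 ratio 0.14, SD 0.083). Each exact two-sided permutation test gave p = 0.333, the smallest that 2 libraries against 2 allow, so no single mark can pass 0.05.

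Across the 3 marks the mean log2 ratio was 0.40, or 1.32-fold, with Corin higher in 6 of 6 same-numbered pairs. Permuting the treatment within each mark gave an exact two-sided p of 0.00926, the smallest that this design allows. That test takes libraries of different marks as independent. A single relabelling of all marks, which does not, gave an exact p of 0.333, its smallest value, so the call rests on that assumption.

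These differences have to be read against the genome, since the Corin lists are longer: 34424 and 30029 H3K27ac peaks after Corin, against 17599 and 19995 after DMSO. With each list cut to the same number of top-scoring peaks, the log2 ratio of the domain for H3K27ac was 0.12, that for H3K4me2 0.56 and that for H3K4me3 0.14. Without Corin replicate 1 the H3K27ac ratio over all peaks was 0.23. The genome was tiled into windows as wide as the domain. Covered length was higher in both Corin libraries in 86% of H3K27ac windows and lower in both in 0.162%. These shares were 82.5% and 0.239% of H3K4me2 windows and 33.8% and 5.3% of H3K4me3 windows. The separation seen here is thus what most windows show for H3K27ac and H3K4me2. The sizes for H3K27ac and H3K4me2 lay away from the median of all windows, which were not matched for DMSO length. The median log2 ratio of all windows was 0.96 for H3K27ac, and 1130 of 1193 windows exceeded the 0.37 of the MYC domain. For H3K4me2 the median was 0.37, and 118 of 1238 windows exceeded the 0.69 of the domain. For H3K4me3 the median was 0.064, and 230 of 1144 windows exceeded 0.14. In the vehicle-treated cells the domain was rich in H3K27ac: its mean of 74045.5 bp after DMSO was exceeded by 2 of 1231 windows, whose median was 5871.5 bp. For H3K4me2 and H3K4me3 387 of 1257 and 513 of 1152 windows had a higher DMSO mean.

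**Figure D2:**
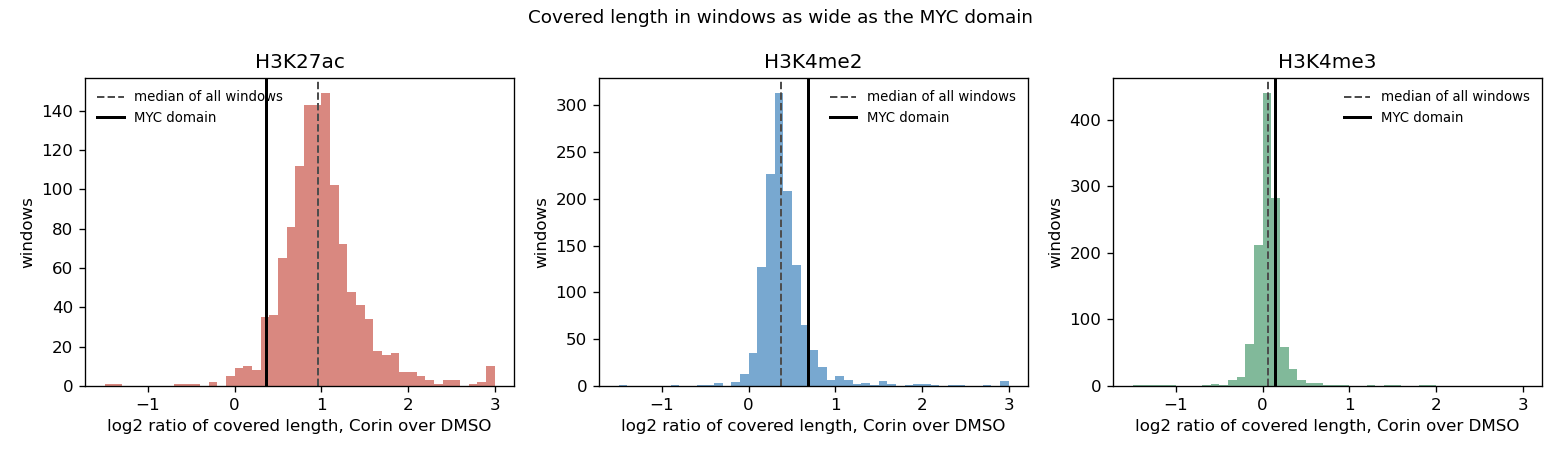
Log2 ratio of mean covered length, Corin over DMSO (x axis), in genome windows as wide as the domain (y axis, number of windows), 1 panel per mark. The solid line of the MYC domain lies left of the dashed median for H3K27ac (0.37 against 0.96) and right of it for H3K4me2 (0.69 against 0.37); values outside the axis are drawn at its ends.

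Promoter and distal sites were taken apart at 1 kb from an annotated transcription start site. Distal H3K27ac peaks numbered 58 and 59 after DMSO and 90 and 79 after Corin, and promoter peaks 6 and 7 against 11 and 9. At equal list lengths the order of H3K27ac peak number in the domain was reversed, with 64 and 61 peaks after DMSO and 45 and 53 after Corin. Distal H3K27ac covered 64135 and 62735 bp after DMSO and 90207 and 76702 bp after Corin, a difference of 20019.5 bp with an SD of 9601 (exact permutation p = 0.333). At equal list lengths that difference was 6330 bp, and without Corin replicate 1 it was 13267 bp. Promoter H3K27ac covered 10466 and 10755 bp against 13939 and 10277 bp, so that the groups overlapped. At the CCDC26 start, promoter peaks covered 1380 bp in Corin replicate 2, 4969 bp in Corin replicate 1, and 5263 and 4764 bp after DMSO. In Corin replicate 2 H3K27ac covered 4362 bp of the region there, with the rest counted as distal. The overlap depends on that split. Distal H3K4me2 peaks numbered 14 and 16 after DMSO and 27 and 26 after Corin, while each of the 4 lists had 4 promoter peaks. Distal H3K4me2 covered 20437 and 20334 bp after DMSO and 40007 and 34696 bp after Corin, 1.83-fold apart in the means. The difference of 16966 bp was larger than its SD of 3756 (exact permutation p = 0.333). H3K4me3 had 2 promoter peaks in every list, at MYC and at PVT1, with 1 distal peak in each DMSO list and 2 in each Corin list.

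The MYC promoter had wide methylation and little acetylation. A single H3K4me3 peak ran over the gene start in each library, 5312 and 5029 bp wide after DMSO and 5294 and 4988 bp wide after Corin. The 4 peaks began between 127734708 and 127734930 and ended between 127739917 and 127740025. All thus covered exons 1 and 2 of the canonical transcript (127736231 to 127736623 and 127738248 to 127739019) and stopped in the intron before exon 3, which starts at 127740396. The same peak covers a start of CASC11, an antisense long non-coding gene, and peaks carry no strand.

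A single H3K4me2 peak enclosed the H3K4me3 peak in each case, 6084 and 6748 bp wide after DMSO and 6810 and 7108 bp wide after Corin. Within 2 kb either side of the MYC start the treatments overlapped for both methylation marks. H3K4me2 covered 3232 and 3485 bp after DMSO and 3245 and 3538 bp after Corin, a difference of 33 bp with an SD of 273.7 (exact permutation p = 0.667). H3K4me3 covered 2721 and 2541 bp after DMSO and 2727 and 2505 bp after Corin, a difference of -15 bp with an SD of 202.1 (exact permutation p = 1). Taken as same-numbered pairs, H3K4me2 was longer after Corin in both and H3K4me3 in 1 of 2. Over the whole peak H3K4me3 was shorter after Corin in both pairs. Both differences within 2 kb changed sign when Corin replicate 2 or DMSO replicate 1 was left out, which also breaks a pair.

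H3K27ac at the MYC start consisted of short peaks. The same 2 kb window held 316 and 251 bp after DMSO and 960 and 475 bp after Corin, without overlap, a difference of 434 bp with an SD of 346.0 (exact permutation p = 0.333). Without Corin replicate 1 the difference was 191.5 bp, and without Corin replicate 2 it was 676.5 bp. The DMSO peaks, at 127736307 to 127736622 and 127735895 to 127736145, did not touch each other. Within 10 kb of the start the groups overlapped, with 515 and 613 bp after DMSO and 1455 and 475 bp after Corin. In that window the DMSO mean of MYC was 564 bp of H3K27ac, and 59.4% of protein-coding genes with any H3K27ac there had more. Only 1.5% of covered genes exceeded its H3K4me3 and 3.5% its H3K4me2. The authors' score, a number of undefined scale used here only for ranks, placed the H3K4me3 peak of MYC at 159 of 11104 and 259 of 11343 in the DMSO lists. The best-placed H3K27ac peak at the MYC start stood at 6626 of 17599 and 5654 of 19995.

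**Figure D3:**
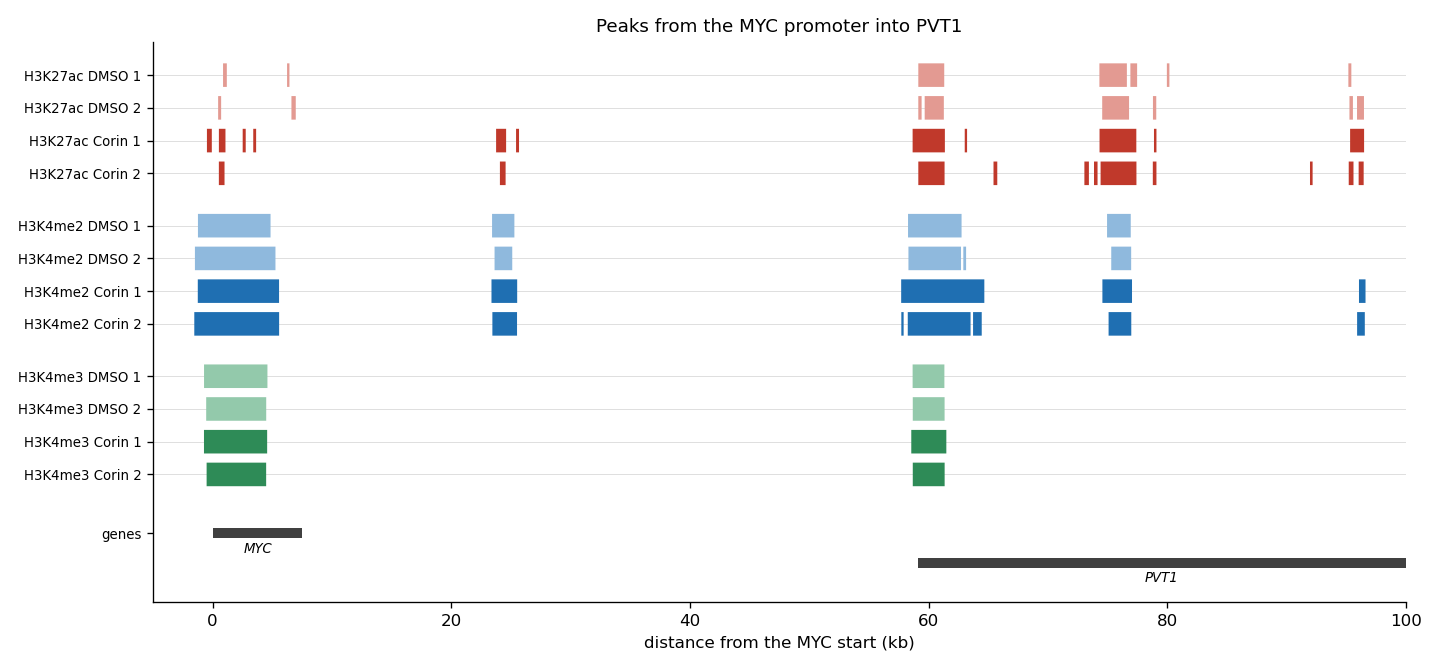
Peaks from 5 kb before to 100 kb after the MYC start, drawn to scale by distance in kb (x axis), 1 row per library (pale, DMSO; dark, Corin). H3K4me2 and H3K4me3 span the first part of MYC in all libraries while H3K27ac is limited to short peaks, and the site near 24 kb has H3K27ac only after Corin.

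Between MYC and PVT1 lay 1 site with standing H3K4me2, intergenic, from 127758800 to 127760952, which begins 23.4 kb after the MYC start. H3K4me2 covered 1870 and 1482 bp of it after DMSO and 2153 and 2066 bp after Corin. H3K27ac had no peak there after DMSO and covered 933 and 477 bp after Corin. This was the single H3K27ac gain of the domain that was also found with the lists cut to equal length.

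At the PVT1 promoter H3K4me3 covered 2661 and 2666 bp after DMSO and 2937 and 2670 bp after Corin. H3K4me2 around it (127793130 to 127800097) covered 4486 and 4637 bp after DMSO and 6968 and 6181 bp after Corin, without overlap. H3K27ac under the H3K4me3 region covered 2172 and 1882 bp after DMSO and 2703 and 2200 bp after Corin, shorter than H3K4me3 in each case.

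Inside PVT1 the sites differed in which marks they held. An intronic site at 74.3 kb from the MYC start (127809740 to 127812900) had H3K27ac of 2867 and 2251 bp after DMSO and 3082 and 3004 bp after Corin, with H3K4me2 in all 4 libraries. A site at 312.5 kb (128047932 to 128051068), which overlaps a start of a PVT1 transcript, had 1760 and 2698 bp of H3K27ac after DMSO and 2821 and 3033 bp after Corin. Its H3K4me2 was 1684 and 1707 bp against 2711 and 2742 bp. A site at 180.2 kb (127915654 to 127918885) was mainly methylated. It had H3K4me2 of 2786 and 2877 bp after DMSO and 3232 and 3053 bp after Corin, but H3K27ac in only 1 library of each treatment, 246 bp after DMSO and 438 bp after Corin. The site at 175.4 kb (127910794 to 127912185) was the opposite, with 911 to 1282 bp of H3K27ac in the 4 libraries and no H3K4me2 peak in any.

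Over the whole stretch from the MYC end to the PVT1 end, H3K27ac covered 9463 and 11791 bp after DMSO and 22119 and 21235 bp after Corin, which is 2.04-fold longer (log2 ratio 1.03, SD 0.23, exact permutation p = 0.333). The covered length of the whole H3K27ac lists had a log2 ratio of 0.97, and at equal list lengths the stretch was 1.29-fold longer, with 9463 and 11515 bp after DMSO and 13067 and 14012 bp after Corin. In the window from 1.6 to 2 Mb downstream, taken as the place of the blood enhancer cluster, H3K27ac covered 64011 and 60568 bp after DMSO and 76726 and 63690 bp after Corin. There the groups overlapped, although Corin was higher in both same-numbered pairs, with a log2 ratio of 0.17 and an SD of 0.20 (exact permutation p = 0.667). The difference of 7918.5 bp was 1400.5 bp without Corin replicate 1 and 14436.5 bp without Corin replicate 2. Among peaks with a score of at least 100 the groups did not overlap, with 54470 and 53771 bp after DMSO and 69297 and 59909 bp after Corin (log2 ratio 0.26, exact permutation p = 0.333). The log2 ratios of these stretches, as means of the libraries' own ratios, differed by 0.87, at the smallest exact permutation p allowed, 0.333. With equal list lengths that difference was 0.32 (exact permutation p = 0.667). H3K4me2 showed the other order, with 1.42-fold in the first stretch and 1.78-fold in the window, and its log2 ratios differed by -0.32 (exact permutation p = 0.333).

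**Figure D4:**
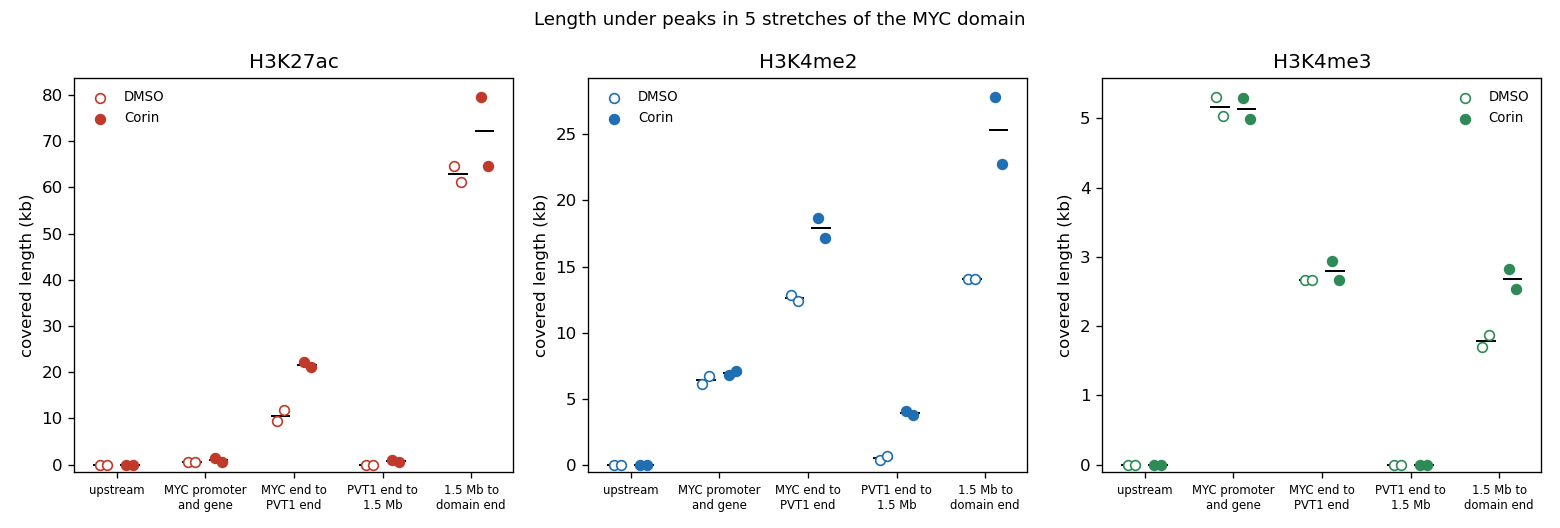
Length under peaks in kb (y axis, from 0) in 5 stretches of the domain for each mark; circles are libraries (open, DMSO; filled, Corin) and bars are means of 2. H3K27ac is far longer beyond 1.5 Mb than at MYC, and its treatments part in the stretches from the MYC end to 1.5 Mb, while H3K4me2 parts in every stretch from MYC on.

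The enhancers beyond 1.6 Mb formed clusters when H3K27ac regions within 12.5 kb were joined, 3 of which held most of the signal. Measured from the MYC start they lay at 1776 to 1822 kb, 1845 to 1861 kb and 1922 to 1948 kb, all within CCDC26. No file here names the modules of the blood enhancer cluster, so none was assigned. Joined within each list and ranked by covered length, the cluster at 1776 kb ranked 5 of 9095 and 7 of 10096 after DMSO. After Corin it ranked 35 of 13633 and 19 of 12433. The widest H3K27ac peak of the whole genome lay in this cluster in 3 of the 4 lists, 8232 and 9591 bp after DMSO and 14590 bp in Corin replicate 2. In Corin replicate 1 a peak of 12457 bp ranked 2 by width. The widest H3K4me2 peak of that Corin replicate, 13134 bp, lay here too. The highest-scoring of the 17599 H3K27ac peaks in DMSO replicate 1 lay in the cluster at 1922 kb, from 129664014 to 129668006.

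The 3 clusters all carried long H3K27ac in both treatments and differed from each other in H3K4me2. In the cluster at 1776 kb H3K27ac covered 22981 and 19883 bp after DMSO and 25859 and 22546 bp after Corin. H3K4me2 covered 12216 and 11840 bp after DMSO and 19581 and 18174 bp after Corin, without overlap. In the cluster at 1845 kb H3K27ac covered 13341 and 12510 bp after DMSO and 14032 and 13049 bp after Corin, while H3K4me2 covered 1028 and 1243 bp against 3089 and 2209 bp. In the cluster at 1922 kb H3K27ac covered 15399 and 17990 bp after DMSO and 18662 and 16250 bp after Corin. The H3K4me2 lists there were empty apart from 1 peak of 227 bp in DMSO replicate 1. As groups, the H3K27ac values of the treatments overlapped in all 3 clusters, while H3K4me2 did not overlap in those at 1776 and 1845 kb. Taken as same-numbered pairs, H3K27ac was longer after Corin in both pairs at 1776 and at 1845 kb, and in 1 of 2 pairs at 1922 kb.

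The last cluster stood out among large clusters. With H3K27ac of at least 10000 bp in both DMSO libraries, a limit chosen after the values were seen, the genome had 69 joined clusters. Their median ratio of H3K4me2 length to H3K27ac length was 0.892. The cluster at 1922 kb had the lowest ratio of the 69, 0.0068, and the cluster at 1845 kb the next lowest, 0.0878. After Corin 209 clusters passed the limit, and that at 1922 kb was the single 1 without an H3K4me2 peak in either library. Its last H3K27ac region, 129677762 to 129683050, reached an annotated start of CCDC26 and covered 4764 to 5263 bp after DMSO and 4362 to 4969 bp after Corin. That start had no H3K4me2 or H3K4me3 peak in any library. Taken over the window from 1.6 to 2 Mb, 21.6% of the H3K27ac length shared by both DMSO libraries also carried H3K4me2 in both, against 58.3% over the genome. After Corin these shares were 33.65% and 56.0%. Conversely, 92.25% of shared H3K4me2 in the window after DMSO lay under H3K27ac, against 13.4% over the genome.

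**Figure D5:**
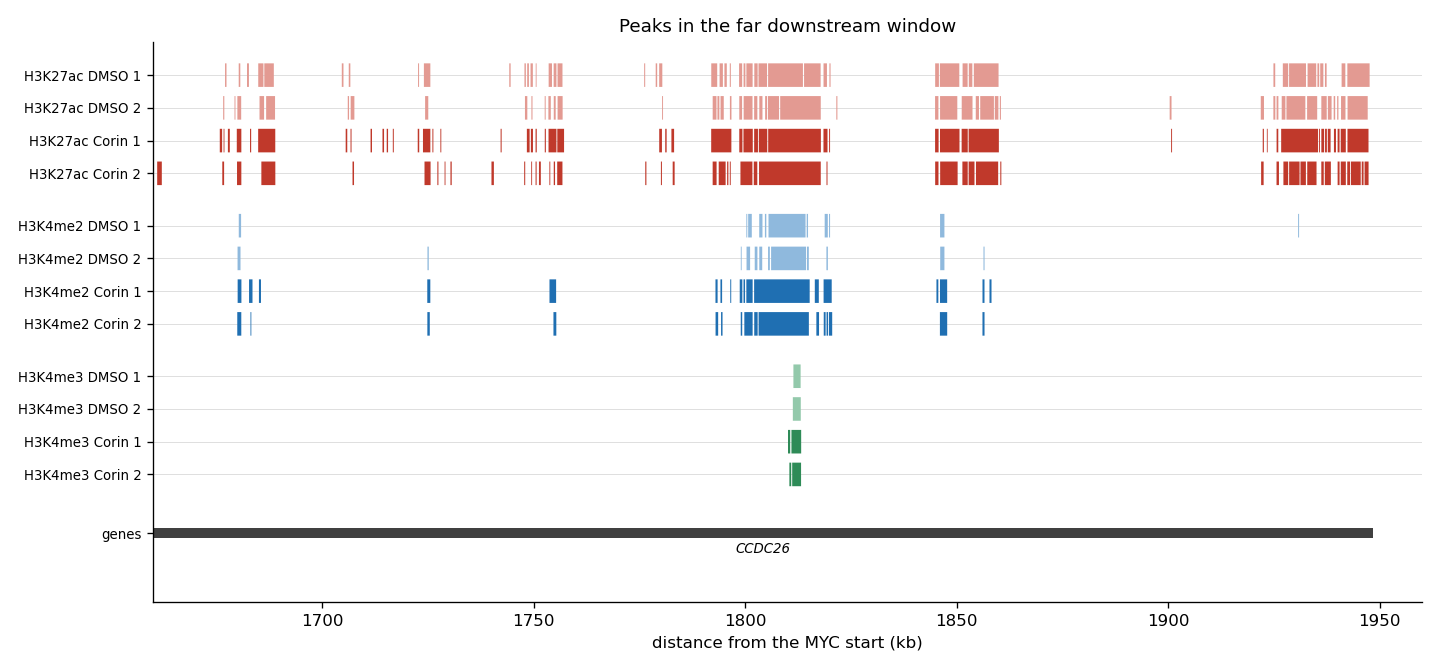
Peaks in the middle part of the far downstream window by distance from the MYC start, drawn to scale (x axis, kb), 1 row per library (pale, DMSO; dark, Corin). The outer ends of the window are not drawn. All 3 large H3K27ac clusters are present in the 4 libraries, H3K4me2 fills mainly that at 1776 to 1822 kb and is missing from that at 1922 to 1948 kb apart from 1 peak of 227 bp, and H3K4me3 marks 1 place near 1811 kb.

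H3K4me3, usual at promoters, had a distal place within the cluster at 1776 kb. The peak was 1704 and 1878 bp wide after DMSO (129546836 to 129548539 and 129546699 to 129548576) and 2297 and 2098 bp wide after Corin. It overlapped an exon of CCDC26 and lay 26019 to 26148 bp from the nearest annotated start, also of CCDC26. By width it ranked 55 of 834 and 42 of 957 distal H3K4me3 peaks after DMSO and 32 of 1083 and 33 of 1113 after Corin. A second, shorter peak beside it, 523 and 436 bp wide, appeared in both Corin lists and in neither DMSO list. Together the H3K4me3 length here differed by 886 bp with an SD of 236.7 (exact permutation p = 0.333). H3K27ac and H3K4me2 covered both places in full in all 4 libraries of each mark.

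Overlapping peaks of a mark were joined over its 4 libraries. A joined region counts as gained if it has a peak in the 2 Corin libraries alone, and as lost if in the 2 DMSO libraries alone. Of 139 H3K27ac regions in the domain, 12 were gained (8.6%) and 2 lost (1.4%), against 11.5% and 0.18% of all regions of the genome. The share gained was near that background, and the difference was not tested. A further 26 H3K27ac regions were in all 4 libraries and 77 in 1 library only. H3K4me2 had 31 regions, with 10 gained (32.3%) and 0 lost, where the genome had 9.64% and 0.158%. Of 4 H3K4me3 regions, 1 was gained and 0 lost, against 1.49% and 0.289%. With the lists cut to equal length and regions drawn anew, 1 of 83 H3K27ac regions was gained (1.2%, against 4.49% of the genome's). In that setting 3 were lost (3.61%, against 1.59%), more than were gained. For H3K4me2 3 of 24 were gained (12.5%, against 3.91%), and for H3K4me3 1 of 4 (against 0.804%). Single libraries also set these counts. Gained H3K27ac regions numbered 50 of 121 without Corin replicate 2 (41.3%, genome 42.6%), 36 of 110 without Corin replicate 1 (32.7%, genome 33.8%) and 20 of 137 without DMSO replicate 2 (14.6%, genome 20.6%). Lost ones numbered 9 of 129 without DMSO replicate 1 (6.98%, genome 3.62%) and 14 of 137 without DMSO replicate 2 (10.2%, genome 2.83%). Gained H3K4me2 regions numbered 16 of 32 without Corin replicate 2 (50%, genome 22.9%).

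The gained H3K27ac regions were 327 to 1353 bp wide and lay near MYC rather than in the far window: 9 lay within PVT1, 1 in the far window at 1782.6 kb. The other two were the methylated sites at 23.8 kb and 514.8 kb. Of the 12, 10 had no H3K4me2 peak in any library. The site at 514.8 kb, intergenic, had H3K4me2 of 325 and 682 bp after DMSO and 2031 and 1591 bp after Corin, and H3K27ac of 971 and 657 bp after Corin alone. The lost H3K27ac regions, 611 bp at 1706 kb and 459 bp at 1924.9 kb, lay in introns of CCDC26 without H3K4me2.

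The gained H3K4me2 regions were all distal, 494 to 1616 bp wide, and 5 of the 10 lay in the far window. They fell into those without and those with acetylation. No H3K27ac peak was found in any library at 4 of them, at 432.2 kb in PVT1 and at 503.4, 531.7 and 998.8 kb beyond it. That at 503.4 kb (128238865 to 128239877) was covered over 974 and 1004 bp after Corin, and that at 531.7 kb (128267148 to 128267892) over 745 and 607 bp. Of the 10, these were the ones with peaks in both Corin libraries at equal list length. Another 4, at 1753.7, 1793.0, 1794.2 and 1816.5 kb, lay on H3K27ac present in all 4 libraries. At 1816.5 kb (129551893 to 129552893) H3K27ac covered the whole region in each library, and H3K4me2 covered 946 and 634 bp after Corin and none after DMSO.

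Of 12 genes with a start in the domain, 6 had a peak of some mark within 1 kb of it: MYC, CASC11, PVT1, CCDC26 and the non-coding LINC02912 and ENSG00000253926. ENSG00000253926, which lies inside CCDC26, had H3K27ac regions of 376 and 901 bp after DMSO and 1075 and 1020 bp after Corin. Its H3K4me2 was 549 and 697 bp against 887 and 952 bp, and it had no H3K4me3 peak. LINC02912, inside PVT1, had H3K27ac in 1 library of each treatment, 579 bp after DMSO and 448 bp after Corin.

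The partners and antagonists of MYC were examined within 10 kb of their start sites. The list of 12 held MAX, the obligate partner, the repressors MXD1, MXD3, MXD4, MXI1, MNT and MGA, the related MLX, MLXIP and MLXIPL, and the paralogues MYCN and MYCL. H3K27ac was higher in both Corin libraries at 4 of 9 genes with a peak and lower at 0, where 54.6% and 0.655% of all covered genes were. H3K4me2 was higher at 7 of 11 and lower at 1, against 39.5% and 3.83%, and H3K4me3 higher at 1 and lower at 1 of 10, against 25.7% and 8.28%. The median difference of the 12 genes, those without a peak counted as 0, was 395.25 bp for H3K27ac and 514.25 bp for H3K4me2. Over all covered genes, where genes without a peak were left out, it was 445 and 233.5 bp. These medians are over unlike sets and cannot be ordered. At MNT, which competes with MYC for MAX, H3K27ac had no peak after DMSO and covered 2113 and 3544 bp after Corin. MXD4 went from none to 758 and 615 bp of H3K27ac, while its H3K4me2 was 2510 and 2465 bp after DMSO and 2263 and 1947 bp after Corin. At MAX H3K27ac overlapped between treatments, 744 and 911 bp against 885 and 825 bp. MYCN had no peak of any mark, and MYCL had H3K4me2 and H3K4me3 but no H3K27ac.

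MYC itself, on the same measure, had H3K4me2 of 6084 and 6748 bp after DMSO and 6810 and 7108 bp after Corin, with its H3K27ac and H3K4me3 overlapping. The genes most like it over the 12 libraries, by Euclidean distance of log2 covered bp with 100 bp added, were looked up among 6082 genes with all 3 marks in every library. SOX4, a transcription factor gene, was the nearest, at a distance of 1.23, with mean lengths of 823.5 bp of H3K27ac, 6540.5 bp of H3K4me2 and 5342.25 bp of H3K4me3. MYC had 764.5, 6687.5 and 5155.75 bp. The next 4, ZFTRAF1, TMEM276, KIFC2 and ENSG00000291316, are neighbours on chromosome 8 whose windows hold the same peaks.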

How the data were processed

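Peaks of 12 libraries were analysed. Trim Galore, Bowtie2, Picard and MACS2 are named with build hg38, per the submitters' processing notes; versions, controls and thresholds are not given in the sources used here. There is 1 list per library. The deposited score, whose definition is not stated, is a whole number of at least 50 and was used for nothing but ranks and thresholds inside each list. Positions count from 1, with GENCODE release 44 and 84610 annotated transcript starts (coding or lncRNA). Covered length is bp under peaks, and promoter means within 1 kb of a start. Analyses used Python 3.11.15 and numpy 2.4.6; functions were tested on simulated lists.

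Groups came from the labels. Tests were exact two-sided permutation tests on libraries. Alternatives were equal list lengths (the 17599, 30896 and 11104 top-scoring peaks for H3K27ac, H3K4me2 and H3K4me3), scores of at least 100, other bounds, presence rules and each library left out. Named sites were gained or lost regions and the widest regions; those of the far window are given by cluster. Likewise MYC, genes with a peak at a start, 12 network genes and the 5 genes nearest to MYC were fixed by rule. Members and lists were chosen with earlier results of these data known. Cluster comparisons, the sites described inside PVT1 and the contrast of stretches were added after the domain was seen. Over 20033 genes, the deviation of a Corin library from its group mean correlated with that of the DMSO library of its number at 0.213 (H3K27ac), 0.230 (H3K4me2) and 0.203 (the third mark). The numbers were therefore used to pair libraries in an alternative test and in counts of same-numbered pairs. The main permutation tests did not pair them, and nothing in the labels gives a shared batch.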

Additional observations from a re-analysis of the deposited data

How the results depend on the processing

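For single marks the side of 0.05 could not change under any setting, so only directions and sizes are informative. At equal list lengths the log2 ratio of H3K27ac peak number was -0.35, the opposite direction. The joint log2 ratio of 0.40 was no longer past 0.05 with 1 relabelling for all marks (exact permutation p = 0.333); with each library left out it ranged from 0.30 to 0.49 (exact permutation p = 0.037). With the replicate block, which pairs same-numbered libraries, it was 0.396 (exact permutation p = 0.0312), the smallest p of its 64 arrangements. That is still past 0.05, but the 6 pairs were permuted independently, so it too takes marks as independent. The block was also run for covered length, peak number and distal length of each mark, where 2 pairs cannot go below an exact permutation p of 0.5, and not for the other results. The H3K4me2 difference at the MYC promoter ranged from -113.5 to 179.5 bp and that of H3K4me3 from -126 to 96 bp with each library left out. Gained regions numbered 1 for H3K27ac and 3 for H3K4me2 at equal list lengths, where 3 of 83 H3K27ac regions were lost (3.61%, genome 1.59%). With scores of at least 100 they numbered 3 of 72 for H3K27ac (4.17%, genome 14.7%), 6 of 26 for H3K4me2 (23.1%, genome 9.53%) and 0 of 4 for H3K4me3 (genome 1.42%). The gained H3K4me3 region was also 0 when peaks within 1000 bp were joined. Lost H3K27ac regions numbered 1 of 72 with scores of at least 100 (genome 0.14%), 1 of 139 when peaks had to cover 50% of a region (0.228%) and 1 of 74 with joined peaks (0.178%). With each library left out, gained regions ranged from 15 to 50 for H3K27ac and from 10 to 16 for H3K4me2, and lost regions from 2 to 14 and from 0 to 1. Fewer samples decide presence in those cases; for other settings the cause was not tested. Read depth and copy number are unknown here, and 2 libraries a group limit each mark to an exact permutation p of 0.333.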
